A study of Mus musculus with 15 samples.

Results

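Cadherins and protocadherins were examined in side population (SP) and non-SP cells sorted from mouse brain tumour cultures and from untransformed neurospheres. The set comprised every gene on the array whose platform symbol is Cdh plus a number or begins with Pcdh, read from probe sets that carry exactly 1 symbol. By that rule 101 probe sets named 56 genes, of 18193 genes with such a probe set. Each gene was represented by the probe set with the highest mean signal over all 15 arrays. The SP is the small fraction of cells that pumps out a fluorescent DNA dye and is widely used to enrich stem-like cells.

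The 15 one-colour expression arrays formed 5 groups of 3. Tumour cultures 3447 and 4346 were spheres grown from brain tumours of mice carrying the S100beta-verbB transgene, in which the S100beta promoter, active in glia, drives the verbB oncogene. The mice were p53-/- or p53+/-, and the labels do not say which genotype gave which culture. Each tumour culture was injected into brains of the immunodeficient strain NOD.Cg-Prkdc<scid>Il2rg<tm1Wjl>/SzJ, which lacks mature lymphocytes, and spheres were recovered from 3 hosts, cultured and sorted. Line 3447 gave SP and non-SP arrays, and line 4346 gave SP arrays. The controls were untransformed neurospheres of 3 independent mice with the same transgene and the same p53 genotypes, sorted into SP and non-SP, so every group carried the transgene and a mutant p53 allele. The design text describes the neurosphere samples both as taken from those mice and as recovered after injection, and it does not settle which. Each tumour line was a single line, so its 3 arrays measure mice injected with that line and not separate tumours. Hosts were mice too, so a host cell in the culture could not be recognised by species.

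Cadherins are calcium-dependent adhesion molecules that join neighbouring cells through their extracellular repeats. Classical cadherins (type I, such as E-cadherin and N-cadherin, and type II) bind catenins inside the cell and so reach the actin skeleton. Protocadherins lack the catenin-binding tail. The clustered protocadherins are encoded in tandem arrays and give neural cells combinatorial surface identities, while the delta protocadherins are encoded singly and act in axon growth, cell sorting and synapse formation. In brain, N-cadherin holds the neural progenitor layer together, and a switch among cadherins accompanies the delamination of neural crest cells.

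Of the 56 genes, 34 exceeded their own array's median signal on at least 3 arrays and were tested among 11908 genes. The tested genes were 3 of 5 type I cadherins, 7 of 11 type II cadherins, 1 of 5 other cadherins, 3 of 4 delta-1 protocadherins, 5 of 5 delta-2 protocadherins, 14 of 23 clustered protocadherins and 1 of 3 other protocadherins. The 22 untested genes never exceeded a signal of 122 on any array. Among them 14 lay below the median of every array, 5 were above it on 1 array and 3 on 2 arrays. The untested classical cadherins were Cdh3 (P-cadherin, of epithelia), Cdh15 (M-cadherin, of muscle), Cdh5 (VE-cadherin, of endothelium), Cdh7, Cdh9 and Cdh18. Cdh16, Cdh17, Cdh23, Cdh26, Pcdh1, Pcdh12 and Pcdh20 were untested as well, with 9 clustered genes (Pcdhb1, Pcdhb2, Pcdhb4, Pcdhb6, Pcdhb8, Pcdhb11, Pcdhb13, Pcdhb14 and Pcdhb18). For 12 of the 22 genes the highest signal was on the third array of 3447 SP, which had the highest median of all arrays (89.3, against 40.0 to 68.1 on the others). At the edge of the filter, Pcdhb5 and Pcdhb15 entered with 3 arrays above the median, and Pcdh1, Pcdh20 and Pcdhb4 stayed out with 2.

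**Figure D1:**
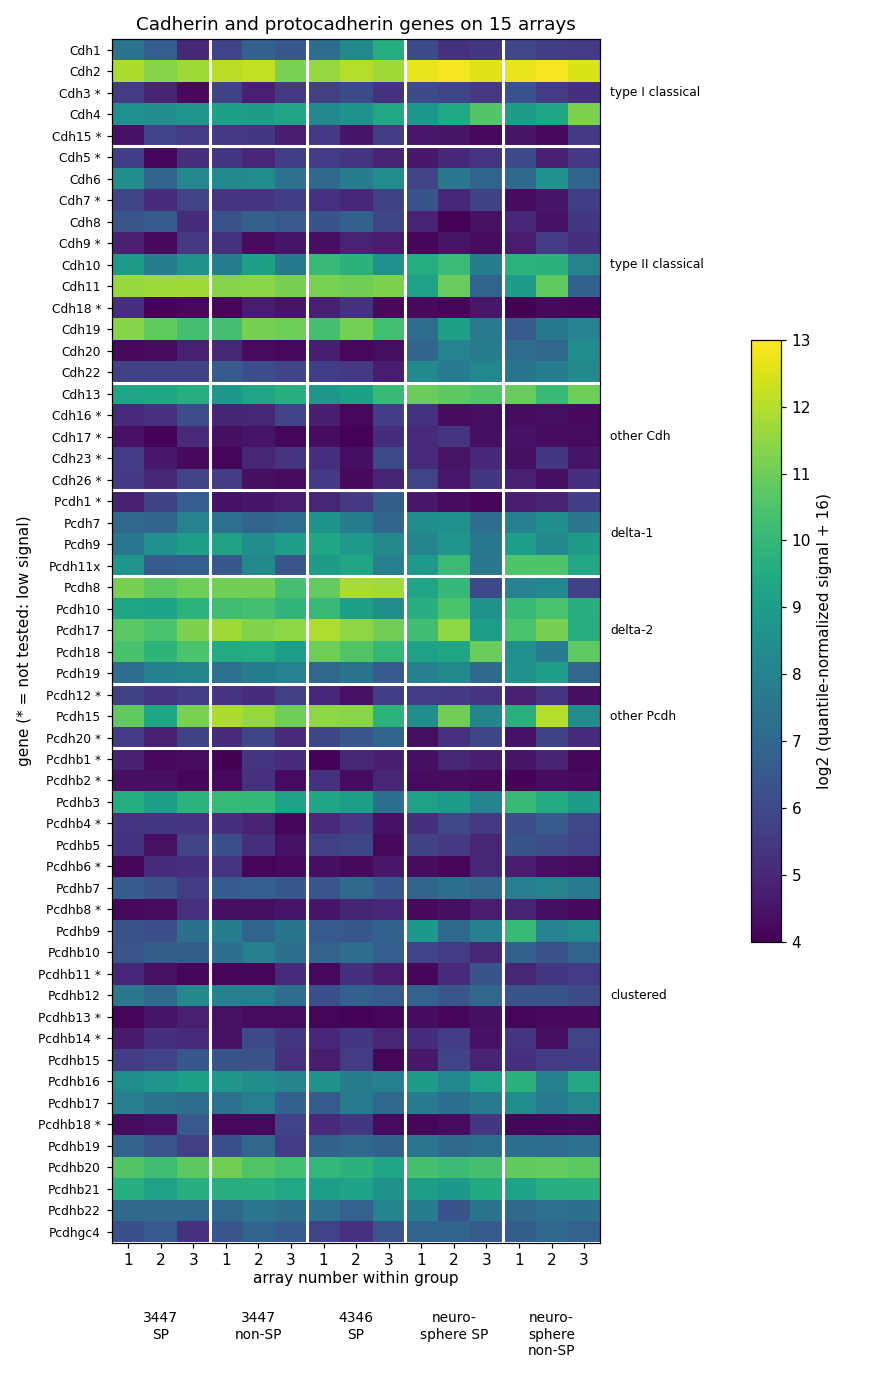
Normalized expression of the 56 genes. Rows are genes grouped by subfamily, columns are the 15 arrays in their 5 groups, and colour is log2 of quantile-normalized signal plus 16. An asterisk marks the 22 genes left untested for low signal, which form dark rows in every group, while Cdh11 and Cdh19 are brighter in tumour columns and Cdh20 and Cdh22 in neurosphere columns.

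In each comparison of tumour with neurosphere cells, 9 or 10 of the 34 tested genes passed the test, in both directions. Comparing 3447 SP with neurosphere SP, 5 genes were higher and 5 lower (29.4% of those tested, against 19.7% of all genes; 10.7% of all genes were higher and 8.99% lower). Comparing 4346 SP with the same neurosphere SP arrays, 5 were higher and 4 lower (26.5%, against 24.3% of all genes, 14.0% higher and 10.3% lower). Comparing 3447 non-SP with neurosphere non-SP, 4 were higher and 6 lower (29.4%, against 19.5% of all genes, 11.2% higher and 8.26% lower). The median log2 fold change of the tested genes was -0.04, -0.21 and -0.06 in these comparisons, beside -0.03, 0.02 and 0.04 for all genes. Calls are at an adjusted p under 0.05 over all 11908 genes, in limma. The first and second comparisons share their neurosphere arrays and are not independent of each other. The SP and non-SP comparisons of line 3447 use different arrays, but of the same tumour line and the same neurosphere cultures. Of the 10 genes called in each, 8 were called in both, against 1644 of 2345 (70.1%) and of 2323 (70.8%) over all genes, namely Cdh2, Cdh8, Cdh13, Cdh19, Cdh20, Cdh22, Pcdh8 and Pcdhb7. On the normalized scale the arrays of the compared groups did not overlap for 13, 14 and 16 of the 34 genes, against 36.0%, 36.9% and 38.8% of all genes. Without the third 3447 SP array and the third 4346 SP array, which stood apart in median signal and in actin 3' to 5' ratio (5.30, against 2.49 to 3.29), the counts were 7, 10 and 11. The 3447 SP count was 6 without the second or without the third 3447 SP array. With culture number as a replicate block among the neurosphere arrays, the counts were 12, 14 and 14. That block leaves the spread between neurosphere cultures out of the error, so these counts are not stronger evidence. With arrays centred on their medians, the 4346 SP calls were 8 higher and 3 lower.

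**Figure D2:**
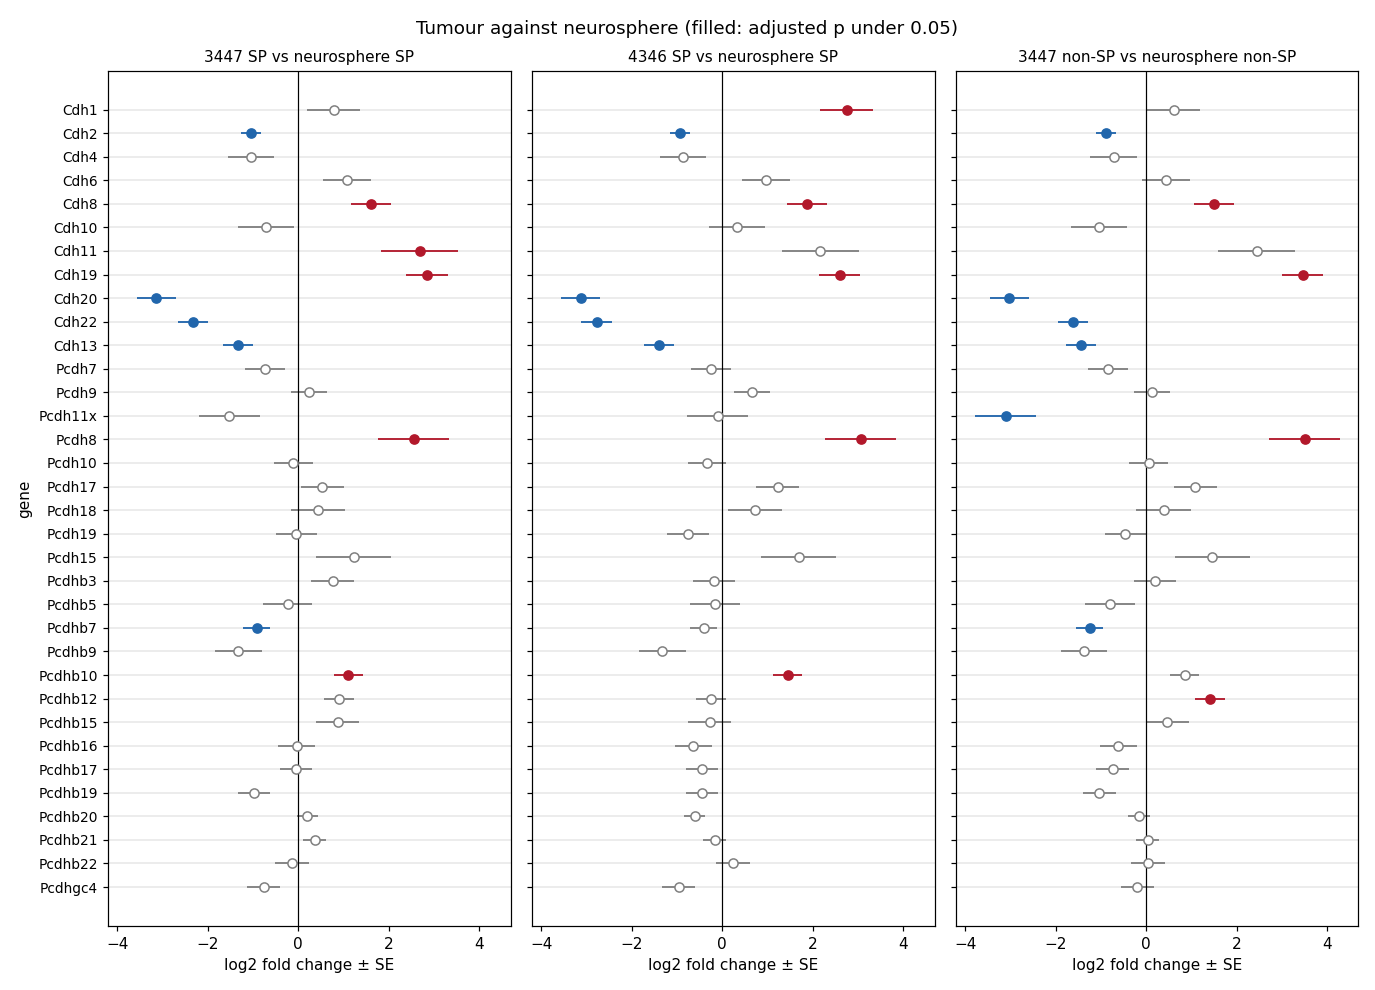
Log2 fold changes of the 34 tested genes. Each panel is a comparison of tumour with neurosphere cells, points are log2 fold changes with SE from limma, red and blue filled points passed the test as higher or lower in tumour, and open grey points did not. Cdh8, Cdh19 and Pcdh8 are red and Cdh2, Cdh13, Cdh20 and Cdh22 blue in all 3 panels, while Cdh1 is filled for 4346 SP only.

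Promoter windows are shown for the called members that the available promoter table held: Cdh8 and Pcdh8, higher in tumour cells, and Cdh20 and Cdh22, lower. Each is 300 bases of GRCm38.p6, from 250 bases before the RefSeq transcription start to 50 after it, written 5′ to 3′ on the gene's strand, with CG dinucleotides in capitals. The windows are chr8:99416422-99416721 on the minus strand, chr14:79771263-79771562 on the minus strand, chr1:104768270-104768569 on the plus strand and chr2:165234688-165234987 on the minus strand.
Cdh8: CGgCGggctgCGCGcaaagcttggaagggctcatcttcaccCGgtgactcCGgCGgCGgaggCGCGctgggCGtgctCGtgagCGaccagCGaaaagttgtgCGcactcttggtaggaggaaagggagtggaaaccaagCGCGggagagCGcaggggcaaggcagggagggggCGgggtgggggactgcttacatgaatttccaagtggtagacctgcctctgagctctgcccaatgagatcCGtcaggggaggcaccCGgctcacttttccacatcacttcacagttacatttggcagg
Pcdh8: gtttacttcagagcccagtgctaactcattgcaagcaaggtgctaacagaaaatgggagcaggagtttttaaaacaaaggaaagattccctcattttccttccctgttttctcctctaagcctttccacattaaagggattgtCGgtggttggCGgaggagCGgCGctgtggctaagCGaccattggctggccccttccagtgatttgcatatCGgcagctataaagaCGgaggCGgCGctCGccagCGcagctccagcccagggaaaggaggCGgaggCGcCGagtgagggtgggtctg
Cdh20: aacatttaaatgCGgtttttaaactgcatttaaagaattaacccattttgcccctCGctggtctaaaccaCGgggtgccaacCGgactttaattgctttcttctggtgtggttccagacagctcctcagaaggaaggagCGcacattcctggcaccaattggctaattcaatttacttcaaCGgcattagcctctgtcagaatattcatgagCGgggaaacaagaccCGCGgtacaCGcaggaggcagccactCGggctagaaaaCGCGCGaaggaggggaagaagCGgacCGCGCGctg
Cdh22: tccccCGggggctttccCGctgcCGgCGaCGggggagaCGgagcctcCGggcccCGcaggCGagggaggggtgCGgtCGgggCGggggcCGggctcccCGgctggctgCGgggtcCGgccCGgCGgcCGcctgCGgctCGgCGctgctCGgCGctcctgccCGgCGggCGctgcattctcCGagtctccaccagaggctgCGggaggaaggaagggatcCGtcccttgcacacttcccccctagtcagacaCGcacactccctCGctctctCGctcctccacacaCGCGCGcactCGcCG
These windows held 21, 14, 18 and 38 CG dinucleotides, against a median of 7 (interquartile range 3 to 20) over all 32851 windows in the table and 14 over the 23 windows found for 20 of the 56 genes. The E-box CACCTG, which binds Snail-family and ZEB repressors, was searched on both strands and occurred in none of them, while 20.2% of all windows held it. The SOX-type motif ACAAAG occurred once, in the Pcdh8 window, and in 18.7% of all windows. No measurement of methylation or binding was made in these samples, and a letter match is a description of the window only.

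Among the type I classical cadherins, Cdh2 (N-cadherin, the main classical cadherin of neural progenitors) was lower in both tumour lines, in SP and in non-SP cells. Its signal was 3825, 2688 and 3241 in 3447 SP and 4342, 4441 and 2324 in 3447 non-SP. In 4346 SP it was 3123, 4173 and 3399. Neurosphere SP arrays read 6589, 7699 and 6338, and neurosphere non-SP arrays 6541, 7445 and 5789. Every tumour array was below every neurosphere array. Cdh2 fell by 1.04 ± 0.22 (SE) on the log2 scale in 3447 SP (adjusted p = 0.0032), by 0.94 ± 0.22 in 4346 SP (adjusted p = 0.00572) and by 0.89 ± 0.22 in 3447 non-SP (adjusted p = 0.00937). The other Cdh2 probe set gave -1.418, -1.498 and -1.003. Under median centring in place of quantile normalization, the call was lost for 4346 SP (adjusted p = 0.0637) and 3447 non-SP (adjusted p = 0.0929). Of the neural stem and progenitor list, the 10 markers summed to 35156 to 36958 in 3447 SP, 38161 to 42157 in 3447 non-SP and 32676 to 35090 in 4346 SP. They summed to 40278 to 53655 in neurosphere SP and 39258 to 48798 in neurosphere non-SP. Prom1 averaged 20.5, 42.2 and 13.7 in the tumour groups against 573 and 480 in neurospheres, Nes 403, 525 and 399 against 1306 and 1591, and Fabp7 7140, 9018 and 6469 against 13678 and 13995. Sox2 averaged 5947 to 6382 and 6103 to 6689, and Vim 18998 to 21394 and 18380 to 19143. Sox1 averaged 2035 in 3447 SP and 2008 in 3447 non-SP, above 1676 and 1158 in neurosphere SP and non-SP, but 3.03 in 4346 SP. Pax6, Msi1 and Hes1 averaged lower in every tumour group than in either neurosphere group. Hes5 averaged 65.2, 55.7 and 79.4 in the tumour groups against 126 and 51.3. The part of these genes in the Cdh2 result was not tested.

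Cdh1 (E-cadherin, the classical cadherin of epithelia) was higher in 4346 SP. Its signal there was 123, 289 and 740, against 47.7, 23.0 and 32.4 in neurosphere SP, and the groups did not overlap. The log2 fold change was 2.75 ± 0.58 (adjusted p = 0.00276), and it was 2.15 (adjusted p = 0.0171) without the third array of 4346 SP, the array that read 740. In 3447 SP the signal was 176, 81.1 and 32.9, overlapping neurosphere SP (0.78 ± 0.58, adjusted p = 0.39). Without the third 3447 SP array and the third 4346 SP array, it passed in 3447 SP (1.46, adjusted p = 0.029 in limma). It did not pass there with the third 3447 SP array alone left out. Non-SP signals were 28.8, 98.8 and 63.5 in 3447 and 42.7, 46.8 and 28.3 in neurospheres (0.61 ± 0.58, adjusted p = 0.529). Cdh1 was above the array median on 7 arrays, all of tumour cells, so it passed the filter only through that side. For 4346 SP against neurosphere SP, its log2 fold change ran from 1.99 to 3.33 over the alternatives. Between the tumour lines Cdh1 gave -1.97 ± 0.58 for 3447 over 4346, which did not pass the test (adjusted p = 0.111). It passed under median centring (adjusted p = 0.0306) and without the first array of 4346 SP (adjusted p = 0.0462). Of the epithelial marker list, 4 of the 8 epithelial markers were below the array median on every array of 4346 SP, and mean signals there were 37.0 for Epcam, 14.2 for Krt8 and 32.3 for Krt18. Esrp1, an epithelial splicing regulator, averaged 132 in 4346 SP, 65.3 in 3447 SP and 12.2 in neurosphere SP. The summed signal of the 8 markers was 5167 to 6121 in 4346 SP, 4863 to 5424 in 3447 SP and 4544 to 5096 in 3447 non-SP. It was 2502 to 3883 in neurosphere SP and 2776 to 3291 in neurosphere non-SP. Most of that sum was Esrp2, a relative of Esrp1, with means of 5499 in 4346 SP and 2985 in neurosphere SP. The part of these genes in the Cdh1 result was not tested.

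Cdh4 (R-cadherin, a type I cadherin of retina and brain) did not pass the test in these comparisons, with log2 fold changes of -1.05 ± 0.51, -0.87 ± 0.51 and -0.72 ± 0.51 and adjusted p of 0.172 to 0.374. Its signal was 272 to 651 on the tumour arrays. In neurospheres it was 412, 633 and 1494 in SP and 488, 608 and 2437 in non-SP, and the third culture was the highest in both sorts.

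**Figure D3:**
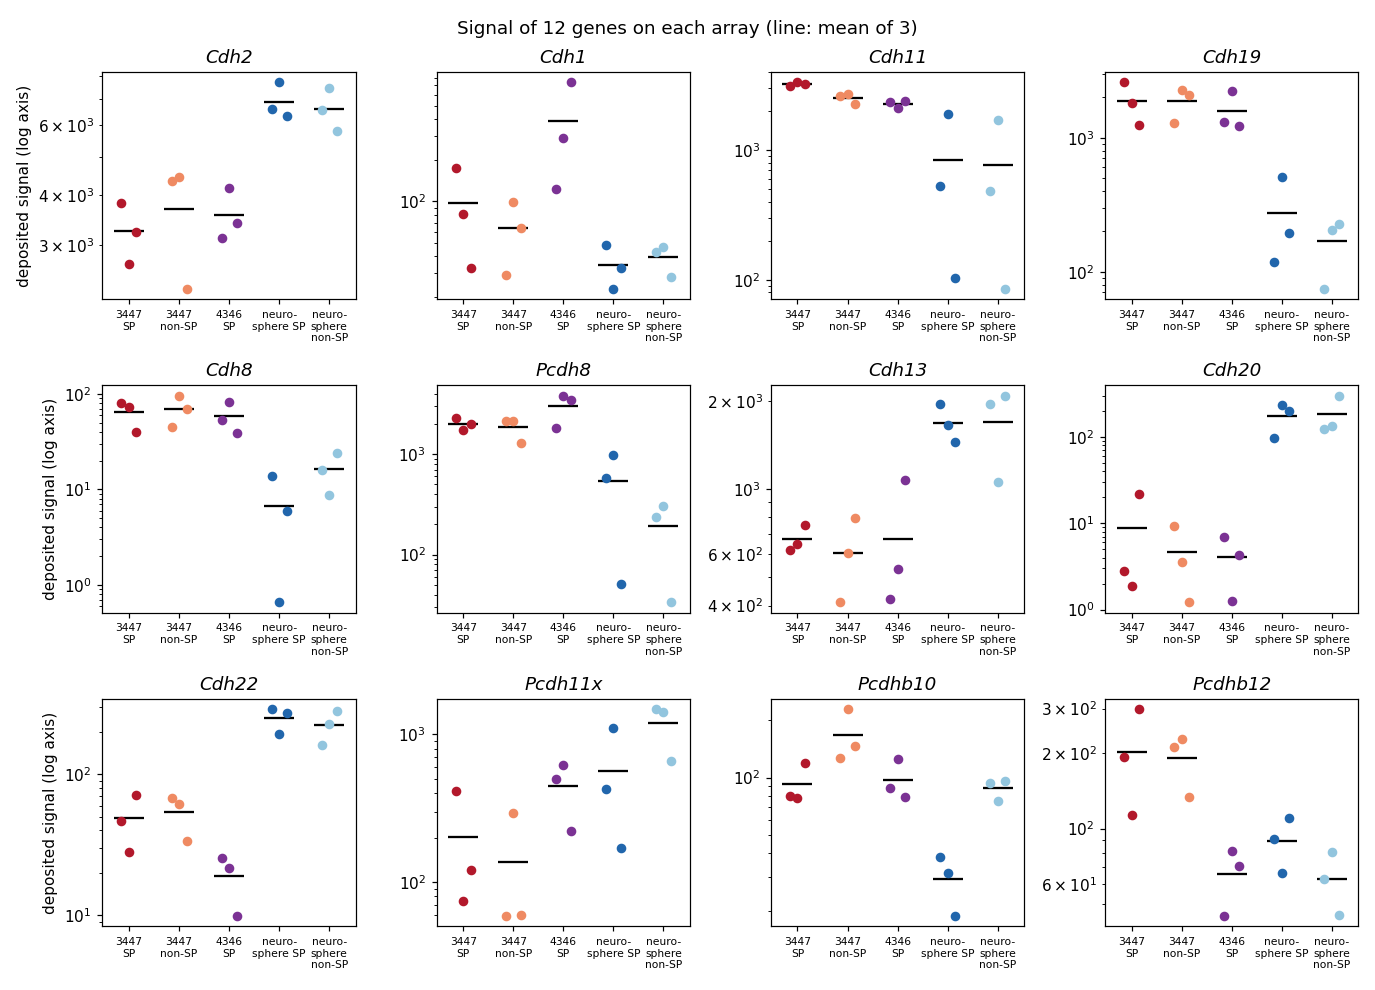
Deposited signal of 12 genes on every array. Points are arrays, short lines are means of 3, the groups run along the x axis and each y axis is logarithmic. Cdh2 lies lower on every tumour array than on any neurosphere array, Cdh20 falls below 22 in them, and Cdh11 spans 85.0 to 1901 among neurosphere arrays but 2108 to 3337 among tumour arrays.

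Among the type II cadherins, Cdh8, Cdh11 and Cdh19 rose and Cdh20 and Cdh22 fell in at least 1 comparison with neurospheres. Cdh19 (a type II cadherin of neural crest derivatives and Schwann cell precursors) was higher in all tumour groups. Its signal was 2593, 1828 and 1248 in 3447 SP, 1306, 2229 and 1218 in 4346 SP, and 1297, 2256 and 2068 in 3447 non-SP. Neurosphere SP read 119, 507 and 193, and neurosphere non-SP 74.3, 205 and 228. The lowest tumour array was above the highest neurosphere array. Cdh19 rose on the log2 scale by 2.85 ± 0.46 for 3447 SP (adjusted p = 0.000365), 2.60 ± 0.46 for 4346 SP (adjusted p = 0.000709) and 3.46 ± 0.46 for 3447 non-SP (adjusted p = 5.85e-05). It passed the test in all 27 alternatives tried in each comparison.

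Markers of neural crest and Schwann cells summed higher on every tumour array than on any neurosphere array. The summed signal of the 6 such markers on the array was 12066 to 14115 in 3447 SP, 10908 to 15694 in 3447 non-SP and 14642 to 16541 in 4346 SP. It was 617 to 3190 in neurosphere SP and 636 to 2632 in neurosphere non-SP, where 4 of the 6 lay below the array median on every array. Most of the tumour sum was Sox10, Erbb3 and Snai2. Sox10, a transcription factor of neural crest and oligodendrocyte lineage, averaged 3123, 3787 and 5818 in 3447 SP, 3447 non-SP and 4346 SP, and 1.29 and 9.94 in the neurosphere groups. Tfap2a of the same list went the other way, with means of 251, 190 and 609 in these tumour groups and 1457 and 1304 in neurosphere SP and non-SP. Ngfr and Foxd3 averaged 35.0 or less in every group. The oligodendrocyte lineage list summed to 24688 to 39759 on tumour arrays and 10349 to 18954 on neurosphere arrays. Within it Olig1 averaged 1690, 2879 and 2249 in the tumour groups against 4010 and 4469 in neurospheres, and Olig2 1952, 2798 and 2412 against 4586 and 4692, both lower in tumour cells. In the same group order Mbp averaged 8316, 9377 and 8815 against 14.3 and 33.1, and Pdgfra 4196, 6718 and 6300 against 607 and 1191. Cspg4 averaged 1206, 1182 and 2810 against 123 and 143, and Cnp 6024, 8303 and 7227 against 4456 and 3625. Mog and Mag averaged 12.9 or less in every group. In these sorted bulk samples, fewer cells of a type and less RNA per cell cannot be told apart, and the part of such cells in the Cdh19 result was not tested.

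Cdh11 (OB-cadherin, of mesenchyme and migrating neural crest) was high and even in tumour cells and uneven in neurospheres. Its signal was 3114, 3337 and 3214 in 3447 SP, 2621, 2684 and 2251 in 3447 non-SP, and 2336, 2108 and 2405 in 4346 SP. Neurosphere SP read 526, 1901 and 103, and neurosphere non-SP 484, 1720 and 85.0. Neurosphere SP and non-SP arrays with the same number deviated together over all genes and were taken as 1 culture, and for Cdh11 the cultures kept their order in both fractions. No tumour array overlapped the neurosphere arrays. On the log2 scale Cdh11 was higher by 2.69 ± 0.84 for 3447 SP (adjusted p = 0.0343), and this call was lost when any 3447 SP array, or the first or the third neurosphere SP array, was left out. For 4346 SP it was 2.17 ± 0.84 (adjusted p = 0.0724) and for 3447 non-SP 2.44 ± 0.84 (adjusted p = 0.0529). These comparisons depended on the processing. With array weights and no block, Cdh11 passed in limma in both 4346 SP (adjusted p = 0.0362) and 3447 non-SP (adjusted p = 0.0193). Median centring in place of quantile normalization also gave calls in both (adjusted p = 0.0173 in 4346 SP, 0.00967 in 3447 non-SP). With no filter on low signal it passed in neither (adjusted p = 0.0943 and 0.0709). With neurosphere culture number as a replicate block, adjusted p was 2.47e-08, 2.3e-07 and 6.68e-08. That block leaves the spread between neurosphere cultures out of the error, by its construction. The other Cdh11 probe set gave 3.54, 2.52 and 1.99. Fibroblast and meningeal markers also summed higher on every tumour array: the 8 came to 5365 to 9287 in 3447 SP, 7338 to 9229 in 3447 non-SP and 13352 to 16812 in 4346 SP. They summed to 970 to 2159 in neurosphere SP and 1552 to 2769 in neurosphere non-SP. In line 3447 most of that sum was Pdgfra, which the oligodendrocyte list also holds, with means of 4196 in SP and 6718 in non-SP. In 4346 SP the largest part was Col1a1. Over 3447 SP, 3447 non-SP and 4346 SP, Col1a1 averaged 1843, 705 and 7532, against 100 and 46.6 in neurosphere SP and non-SP. Col3a1 averaged 202, 119 and 1005 against 20.1 and 23.4, and Tbx18 310, 201 and 139 against 106 and 90.6. Foxc1 averaged 969, 577 and 560 in the same tumour groups against 672 and 721 in neurospheres, and Col1a2 was 33.0 or less in every group. The part of these markers in the Cdh11 result was not tested.

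Cdh8, a type II cadherin of developing brain circuits, was low throughout and higher in tumour cells. Its signal was 81.0, 73.3 and 39.6 in 3447 SP, 52.9, 82.8 and 39.5 in 4346 SP, and 45.5, 96.2 and 69.6 in 3447 non-SP. It was 13.7, 0.652 and 5.96 in neurosphere SP, and 16.1, 8.67 and 24.4 in neurosphere non-SP. The groups did not overlap in any of these comparisons. Cdh8 was above the array median on 7 arrays, all of tumour cells, so it passed the filter only through the side where it was high. The log2 fold change was 1.61 ± 0.44 (adjusted p = 0.0175), 1.88 ± 0.44 (adjusted p = 0.00586) and 1.51 ± 0.44 (adjusted p = 0.0247) for 3447 SP, 4346 SP and 3447 non-SP. Since neurosphere signals were near 0, its size depended on the constant added before the logarithm and ran from 0.74 to 3.18 over the alternatives for 3447 SP. That call was lost without the first or the second 3447 SP array or the second neurosphere SP array, and the 3447 non-SP call without the second or the third 3447 non-SP array or the first or the second neurosphere non-SP array. The other Cdh8 probe sets, with mean signals of 23.4 and 17.9, were below the array median on every array and gave smaller values. The first gave 0.365, 0.457 and 1.092, and the second 0.797, 0.66 and 0.155. Cdh8 and Cdh11 are neighbours on chromosome 8, with no protein-coding gene between them in RefSeq, and Cdh5, untested here, is next to Cdh11.

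Cdh20 and Cdh22 were the type II cadherins that fell. Cdh20, a type II cadherin involved in the sorting of spinal motor neurons, read 2.78, 1.88 and 21.6 in 3447 SP, 6.84, 1.24 and 4.25 in 4346 SP, and 9.33, 3.55 and 1.21 in 3447 non-SP. Neurospheres gave 98.2, 232 and 202 in SP and 125, 133 and 301 in non-SP. On every tumour array Cdh20 lay below the array's median, and no neurosphere array read below 98.2. The log2 fold change was -3.14 ± 0.44 (adjusted p = 8.56e-05), -3.13 ± 0.44 (adjusted p = 8.35e-05) and -3.02 ± 0.44 (adjusted p = 0.000118). Its size depended on the added constant and ran from -4.88 to -1.78 over the alternatives for 3447 SP, with the call kept in all of them. Cdh20 was above the array median on 6 arrays, all of neurospheres, so it passed the filter only through the side where it was high. Cdh20 and Cdh19 lie on chromosome 1, with Cdh7 directly beside Cdh19 and 21 protein-coding genes between Cdh20 and Cdh7, and they moved in opposite directions.

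Cdh22 (a type II cadherin of brain) read 46.4, 28.1 and 71.4 in 3447 SP, 25.3, 21.7 and 9.87 in 4346 SP, and 67.8, 61.5 and 33.9 in 3447 non-SP. Neurospheres gave 290, 193 and 273 in SP and 161, 227 and 281 in non-SP, with no overlap. The fitted log2 fold change was -2.32 ± 0.34 (adjusted p = 0.000131), -2.78 ± 0.34 (adjusted p = 2.25e-05) and -1.62 ± 0.34 (adjusted p = 0.00283), and the call was kept in all 27 alternatives of each comparison. For 4346 SP, where the signal was lowest, the size ran from -3.47 to -1.85 over the alternatives. Cdh6 and Cdh10, neighbours of Cdh9 on chromosome 15, did not pass the test: Cdh6 gave 1.08 ± 0.54, 0.97 ± 0.54 and 0.44 ± 0.54, and Cdh10 gave -0.71 ± 0.62, 0.33 ± 0.62 and -1.04 ± 0.62.

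Cdh13 (T-cadherin) is anchored to the membrane by a lipid and has no cytoplasmic tail. Its signal was 620, 651 and 757 in 3447 SP, 421, 532 and 1076 in 4346 SP, and 410, 606 and 794 in 3447 non-SP. Neurosphere SP gave 1947, 1660 and 1445, and neurosphere non-SP 1954, 1054 and 2083. The compared groups did not overlap. Cdh13 fell by 1.33 ± 0.34 (adjusted p = 0.0104), 1.40 ± 0.34 (adjusted p = 0.0063) and 1.45 ± 0.34 (adjusted p = 0.00589) on the log2 scale. All 27 alternatives of each comparison kept the call. Of 3 other Cdh13 probe sets, those with mean signals of 301 and 108 gave -0.96 to -1.70, and the third, with a mean of 3.88, gave -0.15 to 0.07.

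Among the delta protocadherins, Pcdh8 (a delta-2 protocadherin that promotes endocytosis of N-cadherin at synapses) was higher in tumour cells. Its signal was 2288, 1722 and 1990 in 3447 SP, 1829, 3820 and 3489 in 4346 SP, and 2152, 2145 and 1292 in 3447 non-SP. Neurosphere SP read 576, 990 and 51.3, and neurosphere non-SP 238, 302 and 33.4, with the cultures in the same order. No tumour array overlapped them. Pcdh8 rose on the log2 scale by 2.55 ± 0.78 (adjusted p = 0.0306), 3.07 ± 0.78 (adjusted p = 0.00967) and 3.51 ± 0.78 (adjusted p = 0.00463). The 3447 SP call was lost without any 3447 SP array, without the third neurosphere SP array, in the fit of the compared groups only (adjusted p = 0.0558) and without the trend (adjusted p = 0.0553). With the mean of the Pcdh8 probe sets both SP calls were lost (adjusted p = 0.115 in 3447 and 0.0717 in 4346). The other Pcdh8 probe set gave smaller values of 0.92, 0.75 and 1.08. The probe set used carries the suffix x_at, which marks possible cross-hybridization, so the size is uncertain.

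The other delta-2 genes did not pass. Pcdh10, which acts in axon growth and is silenced in several cancers, gave -0.11, -0.33 and 0.05, each ± 0.43. Pcdh17 gave 0.54, 1.22 and 1.09, each ± 0.48, and Pcdh18 gave 0.45, 0.74 and 0.38, each ± 0.60. Pcdh19, a gene of the X chromosome mutated in a female-limited epilepsy, gave -0.04, -0.75 and -0.46, each ± 0.46. With the replicate block among neurosphere arrays Pcdh17 passed in 4346 SP (adjusted p = 0.00213) and in 3447 non-SP (adjusted p = 0.0055). That fit leaves the spread between neurosphere cultures out of the error.

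Pcdh11x, an X-linked delta-1 protocadherin, was lower in 3447 non-SP than in neurosphere non-SP. Its signal was 58.9, 294 and 60.0 against 1478, 1415 and 662, with no overlap (-3.11 ± 0.68, adjusted p = 0.00413). The SP groups overlapped: 3447 SP read 412, 74.4 and 121, 4346 SP read 495, 617 and 220, and neurosphere SP read 424, 1107 and 170. The log2 fold change was -1.52 ± 0.68 for 3447 SP (adjusted p = 0.135) and -0.10 ± 0.68 for 4346 SP (adjusted p = 0.933). For 3447 SP it passed in limma without the first 3447 SP array (-2.20, adjusted p = 0.0436) or without the third neurosphere SP array (-2.17, adjusted p = 0.0425). The difference between the SP effects in 3447 and in neurospheres, which equals the difference between these origin effects in SP and non-SP, was 1.59 ± 0.97 and did not pass (adjusted p = 0.999). The other Pcdh11x probe set gave -1.34, -0.61 and -1.95. Pcdh7 and Pcdh9, the other delta-1 genes tested, gave -0.85 to 0.66 and did not pass.

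Pcdh15, better known from the tip links of hair cells and expressed in oligodendrocyte progenitors, gave 1.22, 1.70 and 1.46, each ± 0.83, and did not pass. Its signal was 655 to 3859 on tumour arrays. Neurosphere arrays read 316, 2093 and 263 in SP and 821, 3864 and 321 in non-SP, so the second culture matched the tumour range. With the replicate block, which leaves the spread between neurosphere cultures out of the error, it passed in 4346 SP (adjusted p = 0.0127) and 3447 non-SP (adjusted p = 0.032).

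Of the 14 tested clustered protocadherin genes, 1 was higher and 1 lower in 3447 SP, 1 was higher in 4346 SP, and 1 was higher and 1 lower in 3447 non-SP. These are 14.3%, 7.14% and 14.3% of the 14, against 19.7%, 24.3% and 19.5% of all genes. Their median log2 fold changes were -0.04, -0.34 and -0.17. The genes of this family lie in a row on chromosome 18 and are alike in sequence, so probe sets may share transcripts and single values are uncertain. Pcdhb10 read 79.8, 78.5 and 120 in 3447 SP and 87.7, 124 and 78.7 in 4346 SP, against 38.3, 31.5 and 18.8 in neurosphere SP. It was higher by 1.11 ± 0.32 (adjusted p = 0.0237) and 1.45 ± 0.32 (adjusted p = 0.00393). The non-SP arrays read 127, 228 and 147 in 3447 and 93.1, 75.3 and 96.2 in neurospheres (0.85 ± 0.32, adjusted p = 0.0785). The 3447 SP call was lost without the second or the third 3447 SP array or the third neurosphere SP array.

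Pcdhb12 was higher in 3447 non-SP, with 211, 226 and 134 against 63.3, 81.0 and 45.2 (1.41 ± 0.33, adjusted p = 0.00635). In SP cells it read 193, 113 and 298 in 3447, 44.9, 81.2 and 71.0 in 4346 and 90.8, 66.5 and 110 in neurospheres, with log2 fold changes of 0.89 ± 0.33 (adjusted p = 0.0706) and -0.24 ± 0.33 (adjusted p = 0.645). Pcdhb7 was lower in 3447 non-SP, with 68.7, 91.9 and 65.4 against 210, 265 and 176 (-1.25 ± 0.31, adjusted p = 0.00858). In 3447 SP it read 95.0, 50.6 and 61.9 against 96.1, 131 and 116 (-0.92 ± 0.31, adjusted p = 0.0456), and that call was lost in 20 of 27 alternatives, among them without the second or the third 3447 SP array or any neurosphere SP array. In 4346 SP it read 58.1, 108 and 65.4 (-0.41 ± 0.31, adjusted p = 0.357). Pcdhb9 gave -1.32, -1.33 and -1.37, each ± 0.52, with adjusted p of 0.0734 to 0.0862. It passed in all 3 comparisons with the replicate block among neurosphere arrays (adjusted p = 0.0075 to 0.00957), a fit that leaves the spread between cultures out of the error. With array weights and no block, Pcdhb9 also passed in all 3 (adjusted p = 0.0469, 0.0389 and 0.0285 in limma). Pcdhb19 gave -0.98, -0.45 and -1.03 and did not pass, but in 3447 non-SP it passed with array weights (adjusted p = 0.0367).

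None of the 34 genes passed between the tumour lines, 3447 SP against 4346 SP, where 1.7% of all genes did (0.47% higher and 1.23% lower in 3447). At an unadjusted p under 0.05 in limma there were 4 members (Cdh1, Pcdhb12, Pcdhb15 and Pcdhb20) and 1982 of all genes. Members called against neurospheres in both lines gave intervals that include 0 but are not narrow. The 95% interval of the log2 fold change was -0.57 to 0.36 for Cdh2, -0.73 to 1.24 for Cdh19, -0.64 to 0.78 for Cdh13, -0.26 to 1.17 for Cdh22 and -2.18 to 1.15 for Pcdh8. Pcdhb20 read 1486, 1163 and 1626 in 3447 SP and 998, 865 and 612 in 4346 SP, without overlap, and gave 0.81 ± 0.24 (adjusted p = 0.101, the smallest of the 34). On the normalized scale 6 of the 34 genes did not overlap between the lines, against 19.7% of all genes.

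No cadherin or protocadherin separated SP from non-SP cells at the threshold. None passed in SP against non-SP of line 3447 (0.0084% of all genes passed) or of neurospheres (0.0168%), and none in the difference between these SP effects (0%). At an unadjusted p under 0.05 in limma there was 1 member in line 3447 (860 of all genes), 2 in neurospheres (432) and 0 for the difference (266). The replicate block among neurosphere arrays added no call in these comparisons. The arrays did not overlap for 7 members in 3447 and 5 in neurospheres, against 17.6% and 7.61% of all genes.

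The member with the smallest p in both was Pcdhb10, for which every SP array read below every non-SP array of its origin. Its log2 fold change, SP over non-SP, was -0.94 ± 0.32 in 3447 (adjusted p = 0.527) and -1.19 ± 0.32 in neurospheres (adjusted p = 0.826), with 95% intervals of -1.62 to -0.25 and -1.88 to -0.50 before adjustment. In 3447, Pcdhgc4 (67.6, 70.8 and 46.8 in SP, 53.6, 113 and 73.7 in non-SP), Pcdh10 (626, 607 and 865; 1147, 1253 and 975) and Pcdhb9 (76.5, 44.9 and 170; 200, 109 and 166) came next, with -0.63, -0.70 and -0.81. In neurospheres Pcdhb7 gave -0.79 ± 0.31, Pcdhb20 (1310, 1114 and 1268 in SP, 1788, 1755 and 1704 in non-SP) gave -0.49 ± 0.24 and Pcdh11x gave -1.29 ± 0.68. None of these passed, with adjusted p of 0.782 or higher. With the replicate block among neurosphere arrays in limma, Pcdh8 and Pcdh18 ranked next after Pcdhb10 in neurospheres. Both were higher in SP, by 1.09 ± 0.331 (adjusted p = 0.454) and 0.797 ± 0.305 (adjusted p = 0.699), and neither passed. For the difference of SP effects the smallest p values belonged to Pcdh11x, Cdh22 (-0.70 ± 0.48) and Pcdhb17 (0.70 ± 0.50), all with adjusted p = 0.999. Pcdhb17 read 244, 159 and 157 in 3447 SP, 134, 226 and 90.7 in 3447 non-SP, 186, 132 and 189 in neurosphere SP and 314, 218 and 264 in neurosphere non-SP, and 66.7, 187 and 108 in 4346 SP.

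As a description, 16 of the 34 tested genes had a log2 fold change below 0 in both SP comparisons and 6 above 0 in both, beside 26.8% and 32.0% of all genes. Among the 14 clustered genes these numbers were 9 and 1. The comparisons share no array, the genes are not independent of each other, and no test was made of this count.

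**Figure D4:**
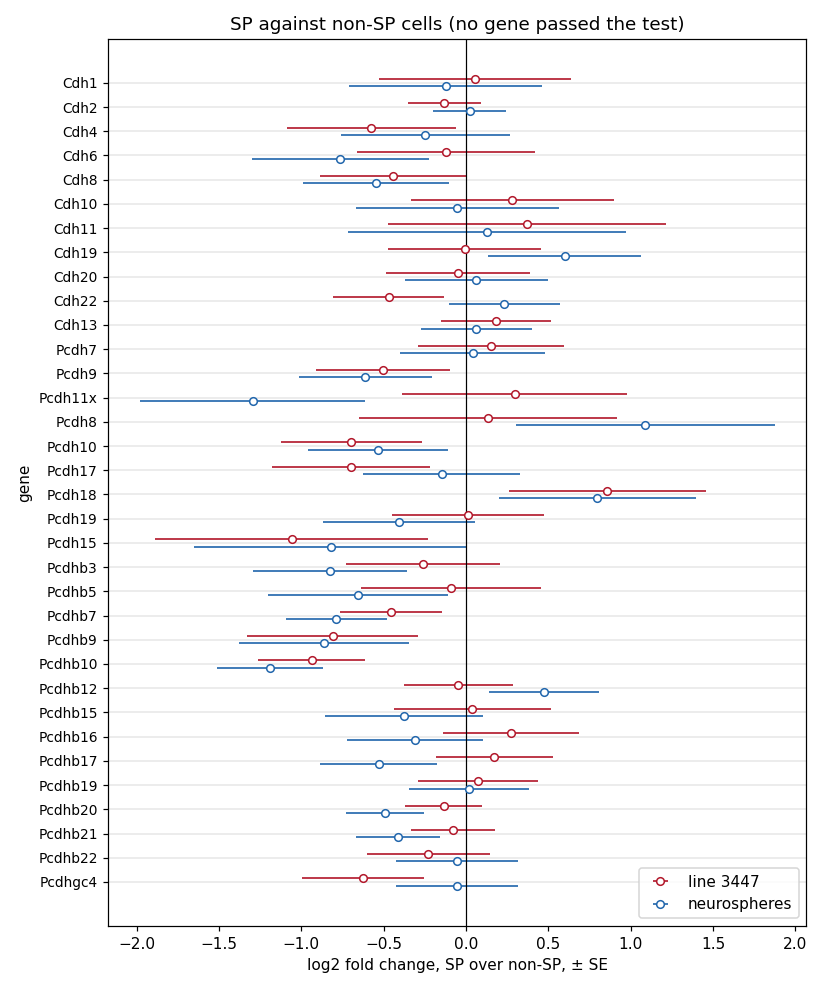
SP against non-SP cells. Points are log2 fold changes of the 34 tested genes, SP over non-SP, with SE from limma, in line 3447 (red) and neurospheres (blue). No point passed the test, and Pcdhb10 lies at -0.94 and -1.19.

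The 3 neurosphere cultures differed among themselves for several members. Averaged over SP and non-SP, the cultures spanned more than 2 log2 units for 6 of the 34 tested genes (17.6%, against 3.28% of all genes): Cdh4, Cdh10, Cdh11, Pcdh8, Pcdh15 and Pcdh18. In line 3447 the same measure exceeded 2 for none of the 34 and for 8 of all genes. Equal numbers did not pair in line 3447, so averaging them narrows the span. These figures therefore do not compare how even the cultures of each origin were. In neurospheres the span was 4.02 for Cdh11, 3.24 for Pcdh15 and 3.23 for Pcdh8. The order of the 3 numbers was the same in SP and non-SP for 13 of the 34 genes in neurospheres (38.2%, against 34.5% of all genes) and for 4 in line 3447 (11.8%, as for all genes). Of the 6 genes named above, Cdh10 and Pcdh18 did not keep the full order in neurospheres. Pcdh18 read 536, 589 and 1904 in SP and 346, 215 and 1728 in non-SP, so the third culture stood above the others, as for Cdh4. For Cdh11, Pcdh8 and Pcdh15 the second culture was the highest and the third the lowest. The neurosphere mice were p53-/- or p53+/-, and which culture had which genotype is not given in the labels.

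**Figure D5:**
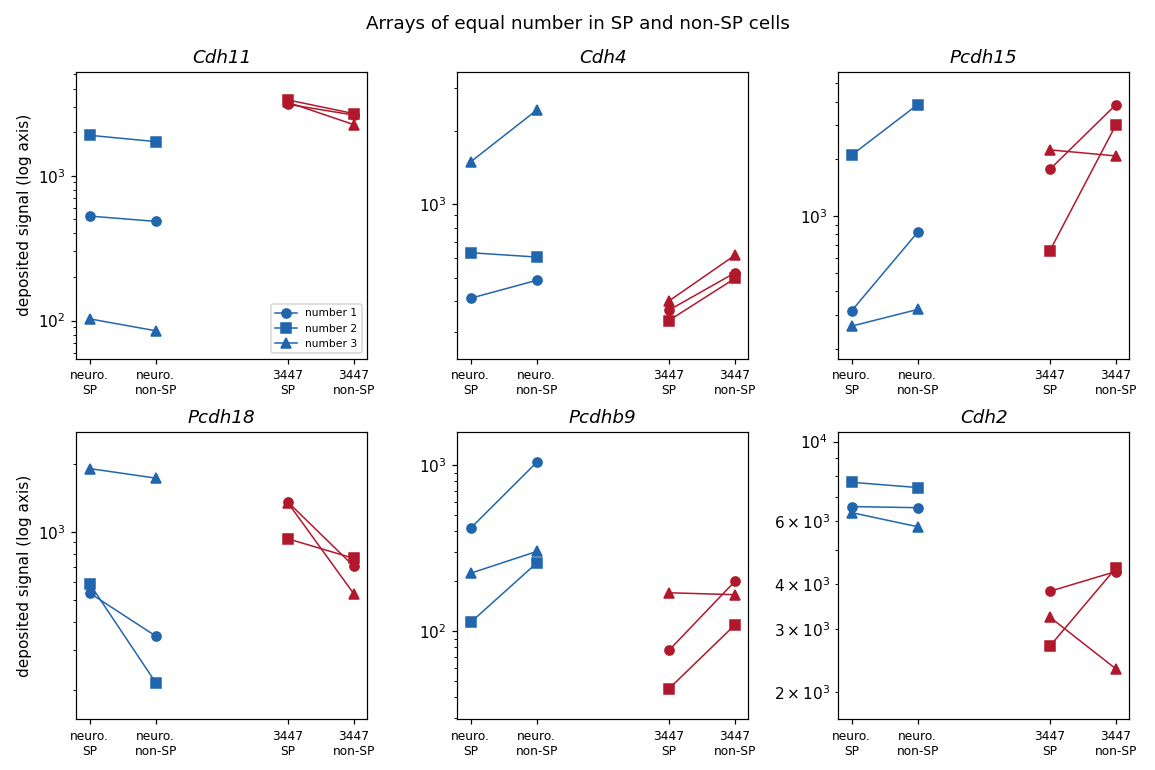
Signal of 6 genes in arrays of equal number. Lines join the SP and non-SP array with the same number, in neurospheres (blue) and line 3447 (red), on logarithmic y axes with a range set for each gene. Neurosphere cultures keep wide and parallel levels for Cdh11 (SP 103 to 1901, non-SP 85.0 to 1720), while the 3447 lines of that gene lie close together.

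Of 22 catenins and adherens junction partners, 20 were tested; 2 were higher and 2 lower in 3447 SP, 1 and 2 in 4346 SP, and 4 and 2 in 3447 non-SP, with medians of 0.08, 0.06 and 0.20. These are 20%, 15% and 30% of those tested, against 19.7%, 24.3% and 19.5% of all genes. Ctnnal1 (alpha-catulin, an alpha-catenin relative) averaged 2459 ± 106 (SD, n = 3) in 3447 SP and 1151 ± 171 in neurosphere SP, and rose by 1.08, 1.01 and 1.37 (adjusted p = 0.00057, 0.000848 and 6.23e-05). Nectin3, an adhesion receptor that acts beside cadherins, fell in line 3447, by 3.35 ± 0.485 in SP and 3.18 ± 0.485 in non-SP, and was lower in 3447 SP than in 4346 SP (-2.50 ± 0.485, adjusted p = 0.0132). Its change in 4346 SP was -0.85 ± 0.485 (adjusted p = 0.221). Afdn (afadin, which ties nectins to actin) rose in 3447, by 0.82 ± 0.13 in both fractions.

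Of 27 other members of the cadherin superfamily, 23 were on the array and 9 were tested; 0 were higher and 2 lower in 3447 SP, 1 and 4 in 4346 SP, and 1 and 2 in 3447 non-SP. The shares called were 22.2%, 55.6% and 33.3%, against 19.7%, 24.3% and 19.5% of all genes. Celsr3, a seven-pass cadherin of axon guidance, fell by 2.18 ± 0.48, 2.96 ± 0.48 and 3.88 ± 0.48 (adjusted p = 0.00422, 0.000332 and 2.71e-05). Cdhr1, a photoreceptor cadherin, rose in 4346 SP (2.92 ± 0.57, adjusted p = 0.00142) and 3447 non-SP (1.80 ± 0.57, adjusted p = 0.0353). Of 21 genes for cadherin cleavage, trafficking and clustered protocadherin regulation, 20 were tested. Of these, 2, 2 and 3 were higher and 1 was lower in each comparison. The shares called were 15%, 15% and 20%, against 19.7%, 24.3% and 19.5% of all genes. Adam10, the protease that sheds E-cadherin and N-cadherin, fell by 0.70 ± 0.14, 0.76 ± 0.14 and 0.64 ± 0.14 (adjusted p = 0.00194, 0.000888 and 0.00366). Cyfip2, a subunit of the WAVE complex that some protocadherins bind, rose by 3.47, 2.87 and 3.13, each ± 0.62.

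The endothelial members Cdh5 and Pcdh12 were untested and at or below 67.0 on every array. Of 10 endothelial markers, 7 to 10 lay below the array median on every array of each tumour group, and their sum was 133 to 365. In neurospheres the sum was 348 to 2122, of which Flt1 made up means of 878 in SP and 287 in non-SP. All 8 or 7 of 8 leukocyte markers lay below the median on every array of each group, with sums of 35.0 to 208.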

How the data were processed

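RNA of sorted cells was amplified (Ovation Pico) and hybridized to 15 one-colour Affymetrix arrays. Per the submitters' processing notes, the authors made the signals with MAS5 in Affymetrix Expression Console (version not given). The deposited values are linear intensity, and on every array their mean after trimming 2% at each end is 500. Array medians differed by up to 2.23 times, so the signals were quantile-normalized here, 16 was added and log2 taken. A difference is on this log2 scale, which understates changes of low genes. The 64 control probe sets were left out. Probe sets above their own array's median on at least 3 arrays were kept, with 1 per gene. limma 3.58.1 in R 4.3.3 fitted 5 group means to all 15 arrays (lmFit, eBayes with trend, 10 residual degrees of freedom), with two-sided p-values adjusted by Benjamini-Hochberg over 11908 genes in each of 7 comparisons. The steps were tested on simulated data. The number of arrays limits the precision.

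In neurospheres, which came from 3 independent mice, SP and non-SP arrays of equal number correlated in their deviations from group means (0.58, 0.522 and 0.622). In line 3447 they did not (-0.224, -0.248 and -0.119). The number was therefore taken to pair neurosphere arrays only.

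Members, gene lists and markers were chosen with earlier results of these data known. Values on every array are given for Cdh1, Cdh2, each member called against neurospheres and the members with the smallest p in the comparisons of SP with non-SP (4 in each, and 3 for the difference of SP effects), and for a few others that illustrate the spread between cultures, chosen after their values were seen. All 56 members matched RefSeq by Entrez ID.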

Additional observations from a re-analysis of the deposited data

Results flagged for a closer look

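Pcdh1, a delta-1 protocadherin, moved in opposite directions in the origins, with no overlap between SP and non-SP arrays in either. SP minus non-SP was 1.19 on the log2 scale in line 3447 and -0.74 in neurospheres. The signal was 15.7, 28.9 and 122 in 3447 SP and 2.96, 9.95 and 5.53 in 3447 non-SP. It was 9.06, 3.12 and 1.62 in neurosphere SP and 10.2, 19.2 and 29.9 in neurosphere non-SP. Without the third 3447 SP array, which had the highest median of all arrays, the 3447 value was 0.72. Pcdh1 was above the array median on 2 arrays only, so it was left out of the reported fit and this difference was not tested there. With no filter on low signal, limma gave 1.93 ± 0.66 for the difference (adjusted p = 0.999).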

How the results depend on the processing

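In comparisons with neurospheres, 29 calls were refitted under 27 alternatives each. Of 783 refitted values 730 kept the call, 53 lost it and 0 reversed, and 20 of the 29 calls were kept throughout. Leaving out each array in turn gave 6 to 10 called members in 3447 SP against neurosphere SP, 9 to 13 in 4346 SP, 9 to 13 in 3447 non-SP and 0 to 1 between the tumour lines. It gave 0 where SP was set against non-SP and for the difference of SP effects. Fitting only the compared groups gave 6 members for 3447 SP, with fewer samples. For 4346 SP, array weights gave 14, as did the replicate block among neurosphere arrays and the block among neurosphere and 3447 arrays. Between the lines, centring arrays on their medians gave 1, Cdh1. The block among neurosphere arrays alone lost no member called without it, gave 12 and 14 for 3447 SP and non-SP, and changed no call in SP against non-SP. The block among neurosphere and 3447 arrays gave 12 and 15, and lost Pcdhb7 in 3447 SP. Both blocks leave the spread between neurosphere cultures out of the error of comparisons with tumour cells. In line 3447 equal numbers did not pair. Centring moved the median of all genes by up to 0.384 below 0 (3447 SP against 4346 SP, -0.384). Leaving out both arrays that stood apart was chosen after seeing the data. Low signal limits Cdh1, Cdh8, Cdh20, Cdh22 and the 22 untested members.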

Other observations

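The clustered protocadherin alpha genes had no probe set with 1 symbol, so none entered the set. Of 6 probe sets that carry several Pcdha symbols, 1 was above the array median on all 15 arrays. It reads 14 genes of the family together. Its signal averaged 392 ± 50.2 (SD, n = 3) in 3447 SP, 474 ± 120 in 3447 non-SP and 263 ± 95.5 in 4346 SP. Neurosphere SP averaged 654 ± 500, with arrays at 536, 1202 and 223, and neurosphere non-SP averaged 863 ± 367, with arrays at 888, 1217 and 484. The neurosphere cultures kept the same order in both fractions, with the second the highest and the third the lowest. The SP arrays of line 3447 overlapped those of neurospheres. No gene of the alpha cluster can be told from another by this probe set, and it was not tested.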
